A study of Homo sapiens with 6 samples.

Results

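The layout of 2 histone marks on the same lysine was examined within a single cell line, the small cell lung cancer line NCI-H69 (H69). The members were all deposited peaks of the H69 H3K27ac library and of the H69 H3K27me3 library on chromosomes 1 to 22 and X, 38255 and 21638 peaks, which made 59893 of the 149848 peaks listed in the whole series. Chromatin immunoprecipitation followed by sequencing used antibody ab4729 for H3K27ac and clone C36B1 for H3K27me3 on formaldehyde-fixed, sonicated chromatin, and no treatment of H69 is named in the labels. H69M, a line derived from H69 according to the labels, contributed 88944 peaks of the same marks and is used for comparison. Each mark in each line was measured in 1 library, so the spread between cultures is unknown and no p-value is given. Read depth is unknown because the lists hold no counts. Input libraries were not used here.

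Lysine 27 of histone H3 can carry either an acetyl group or methyl groups, but not both at once on the same histone tail. Acetylation is placed mainly by p300 and CBP at active promoters and enhancers. Trimethylation is placed by EZH1 or EZH2 within Polycomb repressive complex 2 and is known for broad domains over silent developmental genes such as the HOX clusters. A site with both marks in a bulk library can come from cells, alleles or neighbouring nucleosomes that differ, and these sources cannot be told apart in peak lists. Small cell lung cancer is a neuroendocrine tumour, and H69 is one of its long-established lines. The marker genes of that cell type could not be checked, since no gene table on the build of the peaks, hg19, was used here. Gene names attached to positions below are general background on where these genes lie, and no peak was assigned to a transcript.

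Polycomb domains in mammals often lie over promoters rich in the dinucleotide CG. The promoters of 4 genes named below are shown for this reason, from RefSeq on GRCh38.p14, from 250 bases before to 50 bases after the annotated start, 5′ to 3′ on the strand of the gene, with every CG in capitals. NPTX2, which encodes a secreted synaptic pentraxin, and IRS2, an adaptor of the insulin receptor, lie where the marks met. LHX2, a LIM homeobox factor, lies where an acetylated island sat inside a methylated domain, and GATA6, an endodermal and cardiac transcription factor, lies at a strong H3K27me3 peak far from acetylation.
NPTX2: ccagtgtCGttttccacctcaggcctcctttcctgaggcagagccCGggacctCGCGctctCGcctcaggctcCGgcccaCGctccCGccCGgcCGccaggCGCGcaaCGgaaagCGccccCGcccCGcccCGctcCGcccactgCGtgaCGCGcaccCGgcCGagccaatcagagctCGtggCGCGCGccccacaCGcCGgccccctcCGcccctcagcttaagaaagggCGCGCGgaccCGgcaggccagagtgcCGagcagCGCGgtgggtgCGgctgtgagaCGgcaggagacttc
IRS2: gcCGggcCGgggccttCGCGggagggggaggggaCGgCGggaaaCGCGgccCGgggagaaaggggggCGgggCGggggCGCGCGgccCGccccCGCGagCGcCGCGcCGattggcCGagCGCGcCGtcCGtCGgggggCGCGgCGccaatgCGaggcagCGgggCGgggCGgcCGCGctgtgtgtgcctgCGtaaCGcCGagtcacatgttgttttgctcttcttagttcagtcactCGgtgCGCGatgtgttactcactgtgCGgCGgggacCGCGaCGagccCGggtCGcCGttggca
LHX2: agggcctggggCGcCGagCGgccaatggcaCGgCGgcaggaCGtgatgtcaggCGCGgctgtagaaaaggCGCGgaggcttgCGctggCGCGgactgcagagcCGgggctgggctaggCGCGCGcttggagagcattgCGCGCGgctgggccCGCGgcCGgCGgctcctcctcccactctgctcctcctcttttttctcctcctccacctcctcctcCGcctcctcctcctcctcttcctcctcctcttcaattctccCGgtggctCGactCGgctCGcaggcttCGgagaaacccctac
GATA6: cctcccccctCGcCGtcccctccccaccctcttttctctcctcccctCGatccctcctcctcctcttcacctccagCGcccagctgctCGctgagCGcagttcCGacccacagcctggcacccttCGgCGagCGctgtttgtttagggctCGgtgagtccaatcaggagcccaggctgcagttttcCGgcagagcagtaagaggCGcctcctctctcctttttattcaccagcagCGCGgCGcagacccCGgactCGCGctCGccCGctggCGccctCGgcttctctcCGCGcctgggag
NPTX2 and LHX2 and GATA6 are on the plus strand and IRS2 is on the minus strand. The counts of CG were 39 for NPTX2, 50 for IRS2, 30 for LHX2 and 25 for GATA6, against a median of 14 over 35114 RefSeq promoter windows of the same length, of which 96.0% held at least 1. These windows describe the sequence, and no peak was assigned to them.

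The lists of the marks differed in shape. H3K27ac peaks had a median width of 966 bp and a longest peak of 21.951 kb, and they covered 1.70% of the usable genome, meaning each chromosome from its first to its last listed peak of the series without its largest peak-free stretch (2837 Mb in all). H3K27me3 peaks had a median width of 185 bp and a longest peak of 5.902 kb, and they covered 0.173%. The authors' score per peak starts at 50.01 in both lists, and its definition is not given in the sources used here. Its median was 212.6 for H3K27ac and 66.92 for H3K27me3, and 86.2% of H3K27me3 peaks scored under 100 against 30.4% of H3K27ac peaks. Both marks were clustered. A peak of the same mark lay within 10 kb of 75.6% of H3K27me3 peaks and 62.8% of H3K27ac peaks.

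The first question was how far apart the marks lay. From an H3K27me3 peak the nearest H3K27ac peak was a median of 50.9 kb away (exact 95% interval 50.1 to 51.9 kb, n = 21638 peaks), with the middle of the distribution between 19.8 kb and 108.9 kb. Points set every 1 kb along the usable genome, the background for this comparison, had a median of 59.6 kb and a wider middle range of 17.04 to 188.9 kb. Pooled over chromosomes, H3K27me3 therefore kept to a band of intermediate distances. The pooled values mix chromosomes that differ in both marks, and the median was below that of the grid on 10 of 23 chromosomes. Within 10 kb of H3K27ac lay 14.9% of H3K27me3 peaks, against 17.4% of grid points. Within 100 kb the order was the other way, 72.4% of peaks against 61.4% of grid points. The grid also falls on sequence where short reads cannot be placed, so its values are a description.

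Counted by zone, 405 H3K27me3 peaks overlapped H3K27ac, 378 lay up to 1 kb away without overlapping, 1010 lay 1 to 5 kb away and 1427 lay 5 to 10 kb away. The zone from 10 to 50 kb held the most, 7439 peaks or 34.4%. The zone from 50 to 100 kb held 5015 and the zone from 100 to 500 kb held 5662. Only 302 H3K27me3 peaks, 1.40%, were more than 500 kb from H3K27ac. In the other direction the distances were longer. An H3K27ac peak was a median of 209.8 kb from H3K27me3, against 364.5 kb for the grid, with 5.68% within 10 kb against 7.07% of grid points and 32.7% within 100 kb against 27.6%.

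The covered length of H3K27me3 was then followed outward from the edges of H3K27ac peaks, in shells of distance, as a ratio to its average over the usable genome. Inside H3K27ac peaks the ratio was 1.09. Within 100 kb it was lowest, at 0.671 from 1 to 2 kb and at 0.696 from 2 to 5 kb, and it returned to 0.925 from 5 to 10 kb. The highest ratio, 1.52, came 50 to 100 kb away, and beyond 1 Mb the ratio was 0.0439. H3K27ac around H3K27me3 peaks had a like course, with 1.09 inside, 0.536 from 1 to 2 kb, 1.65 from 50 to 100 kb and 0.451 beyond 1 Mb. Over the full lists and within 100 kb of a peak, each mark was thus thinnest at 1 to 2 kb from the other and densest at 50 to 100 kb. With H3K27me3 peaks scoring 100 or more only, the ratio around H3K27ac was 1.49 inside. It was 1.04 in the first 0.5 kb and 1.09 from 0.5 to 1 kb, with no dip there. It was 0.621 from 2 to 5 kb, the lowest within 100 kb, and 1.59 from 50 to 100 kb.

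**Figure D1:**
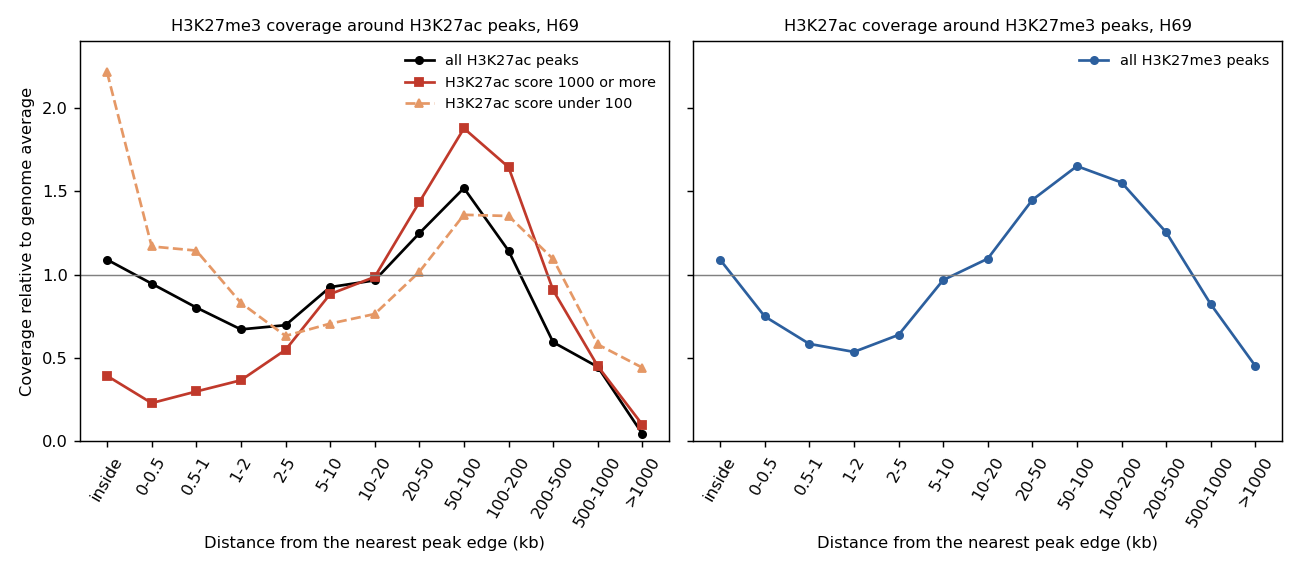
Covered length of one mark in shells of distance (kb, horizontal axis) from the nearest peak edge of the other mark in H69, as a ratio to the average over the usable genome (vertical axis, grey line at 1). In the left panel black circles stand for H3K27me3 around all H3K27ac peaks, squares for those scoring 1000 or more and triangles for those scoring under 100, and in the right panel circles stand for H3K27ac around H3K27me3 peaks; the dip at 1 to 2 kb (0.671 and 0.536) and the maximum at 50 to 100 kb (1.52 and 1.65) appear in both.

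The dip differed with the score of the acetylated site. Around H3K27ac peaks with a score of 1000 or more, the H3K27me3 ratio was 0.392 inside the peaks and 0.229 in the first 0.5 kb outside, and it rose to 1.88 at 50 to 100 kb. Around H3K27ac peaks scoring under 100, the ratio was 2.21 inside, 1.17 in the first 0.5 kb, 0.632 at 2 to 5 kb and 1.36 at 50 to 100 kb. The share of H3K27ac peaks that touched H3K27me3 was lowest among the strongest. Of the 3417 H3K27ac peaks at the score ceiling of 3100 or above, 8 touched H3K27me3 (0.234%, exact 95% interval 0.101 to 0.461%), against 102 of 11644 under 100 (0.876%, 0.715 to 1.06%). It was 0.957% for scores of 100 to 300, 0.968% for 300 to 1000 and 0.547% for 1000 to 3100. These strongest sites were also nearer to H3K27me3, with a median of 142.7 kb (132.9 to 153.9 kb) against 237.6 kb (229.5 to 244.9 kb). Such intervals cover counting error only and are too narrow where adjacent peaks belong to 1 region.

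By H3K27me3 score the distances ran the other way. The 270 H3K27me3 peaks scoring 300 or more were a median of 76.0 kb (63.5 to 101.4 kb) from H3K27ac, and the 350 scoring 200 to 300 were 63.4 kb (55.0 to 74.2 kb) away. The 5434 peaks scoring under 60 were 49.0 kb (46.9 to 50.8 kb) away. The share touching H3K27ac was 1.75% (1.42 to 2.13%) in the lowest class, 6.0% (3.75 to 9.03%) at 200 to 300 and 1.85% (0.604 to 4.27%) at 300 or more, so it did not move in 1 direction with the score.

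The second question was at which scale the marks were apart. Each chromosome was divided into bins, and the number of bins with both marks was divided by the number given by the product of the 2 marks' shares of bins. Over bins with a peak in at least 1 of the 4 lists of the series, the ratio was 0.191 (95% interval 0.180 to 0.203) at 10 kb, where 1119 of 12494 H3K27me3 bins also held H3K27ac. It was 0.381 at 25 kb, 0.583 at 50 kb, 0.790 (0.763 to 0.818) at 100 kb, 0.973 at 250 kb, 1.03 at 500 kb and 1.03 (0.996 to 1.06) at 1 Mb. Leaving out empty bins lowers such a ratio by construction. Over all bins the ratio was 0.870 (0.820 to 0.923) at 10 kb and 1.02 at 25 kb, and then above 1 at every size from 50 kb to 1 Mb, with 1.17 (1.13 to 1.21) at 100 kb and 1.08 (1.04 to 1.12) at 1 Mb. With the product taken inside each 1 Mb bin, which holds the regional density fixed, it was 0.538 (0.507 to 0.570) at 10 kb, 0.693 at 25 kb, 0.815 at 50 kb, 0.921 (0.889 to 0.954) at 100 kb, 0.986 at 250 kb and 1.01 at 500 kb. At 10 kb the ratio was below 1 in each of the 3 forms. At 100 kb it was below 1 without empty bins and with the local product, and above 1 over all bins with the genome-wide product.

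**Figure D2:**
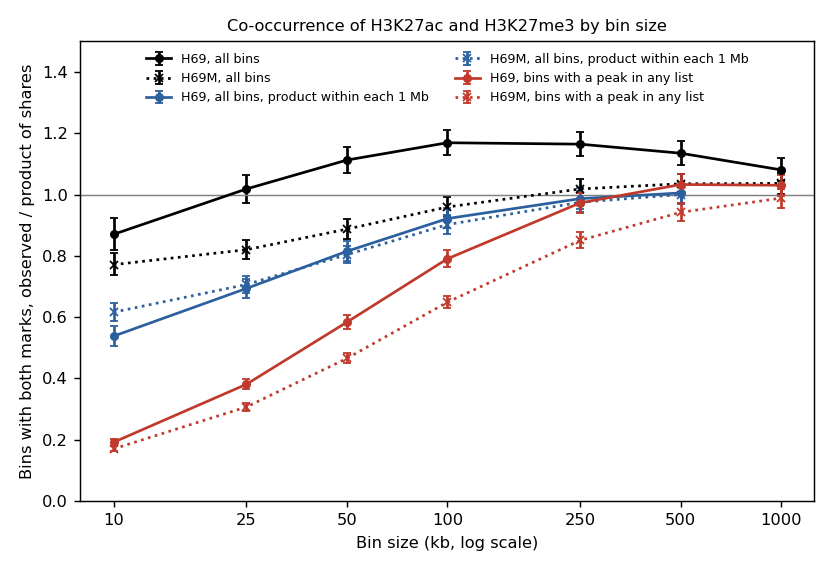
Bins with both marks, as observed number over the product of the marks' shares of bins (vertical axis), by bin size in kb on a log scale, with exact 95% intervals for counting error. Solid lines with circles are H69 and dotted lines with crosses H69M; red stands for bins with a peak in any list, black for all bins and blue for all bins with the product taken within each 1 Mb, and in H69 the values at 10 kb are 0.191, 0.870 and 0.538.

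The correlation of covered lengths also rose with bin size, in the same peaks and bins. Over the bins with a peak in any list, Spearman's rho between the covered lengths of the marks was -0.349 over 64853 bins of 10 kb, -0.122 over 19954 bins of 100 kb, 0.071 over 9873 bins of 250 kb and 0.391 over 2829 bins of 1 Mb. Over all bins rho was -0.00993 at 10 kb, 0.080 at 100 kb and 0.432 over 2967 bins of 1 Mb. Over the 1119 bins of 10 kb with both marks it was 0.013. Leaving out empty bins lowers rho by construction, so the negative values at small sizes do not show separation by themselves. These correlations are across bins of the same 2 libraries, bins share mappability and gene density, and many small bins hold 1 mark only.

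At 1 Mb, bins with more H3K27ac more often held H3K27me3. Of 2967 bins, 1561 held both marks, 1080 held H3K27ac only, 62 held H3K27me3 only and 264 held neither. Of the 1623 bins with H3K27me3, 96.2% also held H3K27ac, close to the 89.0% of all bins and the 93.4% of bins with a peak in any list. In the lowest quartile of bins by H3K27ac length 35.8% (32.3 to 39.5%) held H3K27me3, with a mean of 0.504 kb. The next quartiles had 52.5% and 1.04 kb, then 63.2% and 1.57 kb. In the highest quartile 77.9% (74.7 to 80.9%) held H3K27me3, with a mean of 3.83 kb.

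The bins at the extremes held known genes of different kinds. The most H3K27me3 without any H3K27ac peak was found on chromosome 13 from 109 to 110 Mb, the site of MYO16, with 25 peaks covering 6.12 kb at a median of 564.1 kb from H3K27ac. Chromosome 9 from 89 to 90 Mb, which holds GAS1, a cell-surface protein of Hedgehog signalling, had 24 peaks and 5.34 kb, and chromosome 4 from 49 to 50 Mb, next to the centromere, had 11 peaks and 4.95 kb. Chromosome 1 from 237 to 238 Mb, largely the cardiac calcium-release channel RYR2, had 22 peaks and 4.61 kb. Chromosome 8 from 24 to 25 Mb, with the neurofilament genes NEFM and NEFL, had 14 peaks and 3.15 kb. All 5 lacked H3K27ac by the rule that chose them.

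The most H3K27ac without any H3K27me3 peak was found on chromosome 11 from 12 to 13 Mb, with 84 peaks covering 98.2 kb around MICAL2, an actin regulator, and TEAD1, a DNA-binding partner of YAP. Chromosome 14 from 77 to 78 Mb followed with 61 peaks and 97.0 kb. Chromosome 17 from 17 to 18 Mb, with RAI1, had 75 peaks and 94.6 kb, chromosome 22 from 38 to 39 Mb had 67 peaks and 94.1 kb, and chromosome 1 from 27 to 28 Mb, with the SWI/SNF subunit ARID1A, had 68 peaks and 88.5 kb.

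In the 5 bins that ranked highest on both marks together, the median distance from H3K27me3 to H3K27ac was 29.1 to 63.8 kb. Chromosome 19 from 1 to 2 Mb had 58 H3K27ac peaks (105.2 kb) and 167 H3K27me3 peaks (41.5 kb), at a median of 29.1 kb from H3K27ac and with 0 touching it. Chromosome 21 from 46 to 47 Mb had 58 and 122 peaks at a median of 33.3 kb, and chromosome 19 from 49 to 50 Mb had 52 and 126 peaks at 35.1 kb. The HOXC bin, chromosome 12 from 54 to 55 Mb, had 57 and 80 peaks at 38.5 kb. The HOXB bin, chromosome 17 from 46 to 47 Mb, had 79 and 70 peaks at 63.8 kb. In this order of bins, 0 of 167, 2 of 122, 1 of 126, 0 of 80 and 2 of 70 H3K27me3 peaks touched H3K27ac. The share over the whole list was 1.87%, and with counts this small a difference from it was not tested.

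The third question was how the marks alternate along a chromosome. Of 59870 pairs of neighbouring peaks, 87.7% (87.4 to 87.9%) had the same mark, where the shares of the 2 marks in any order would give 53.8%. There were 7387 switches between marks, with a median gap of 26.7 kb and a middle range of 8.38 to 74.2 kb. Between neighbours of the same mark the median gap was 11.1 kb for H3K27ac and 3.31 kb for H3K27me3. Within 10 kb lay 28.3% of the switches. A single broad mark broken into many peaks raises the share of equal neighbours. With peaks of 1 mark closer than 5 kb joined it was 79.9%, and the any-order value was not recomputed for joined peaks.

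The switches cut the list into 3705 uninterrupted runs of each mark. Runs of 20 or more peaks held 62.9% of H3K27ac peaks and 41.2% of H3K27me3 peaks. Single-peak runs numbered 1106 for H3K27ac, and these isolated acetylated sites had a median score of 290 against 190 in runs of 20 or more. For H3K27me3 the medians were 65.6 and 68.0.

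The longest H3K27ac run by number of peaks was chr10:73724116-82296321, with 198 peaks over 8.57 Mb. It was followed by chr2:21021822-35518474 (178 peaks), chr4:122301261-147444161 (161 peaks over 25.1 Mb), chr14:76947228-87793407 (153 peaks) and chr16:66356376-71599587 (139 peaks). H3K27me3 runs were shorter in bases. The first was chr18:10587565-11845074, with 177 peaks over 1.26 Mb that include PIEZO2, a mechanosensitive channel. Next came chr17:34266924-34838737 (118 peaks over 0.572 Mb), where the CC chemokine genes of the CCL3 and CCL4 group lie, and chr19:54976113-55471686 (117 peaks over 0.496 Mb), which holds LILR and KIR immune receptor genes. The run chr13:110458933-111259865 (111 peaks) covers the basement-membrane collagen genes COL4A1 and COL4A2, and chr19:1658230-1808857 (109 peaks) covers ONECUT3, a homeobox factor.

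H3K27me3 peaks closer than 5 kb were joined into 11212 domains. Of these 7415 were single peaks, 3065 held 2 to 4 peaks, 565 held 5 to 9 and 167 held 10 or more. By edge distance the larger domains lay nearer to H3K27ac. The medians were 55.2 kb for single peaks, 48.1 kb, 40.8 kb and then 37.5 kb for 10 or more. A wider domain has a shorter edge distance by construction, and the median span rose from 0.18 kb to 20.4 kb. How much of the trend comes from span was not tested. An H3K27ac peak lay within 1.87% (1.58 to 2.21%) of single peaks and within 12 of the 167 largest domains (7.19%, 3.77 to 12.2%), which span more sequence.

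The domain with the most peaks was chr19:1668501-1808857 over ONECUT3, with 107 peaks in 140.4 kb, a best score of 534.52 and the nearest H3K27ac 3.53 kb away. The second, chr8:86726455-86841005, with 68 peaks in 114.6 kb, covers the tandem copies of REXO1L1 and was 513.5 kb from H3K27ac. The third, chr12:132835164-132922420 at GALNT9, had 64 peaks and lay 51.6 kb from H3K27ac. The fourth, chr1:2583532-2631087, had 59 peaks and lay 8.77 kb away, and the fifth, chr19:48392401-48461059, had 55 peaks and lay 109.8 kb away. Distance to acetylation thus ranged from under 4 kb to over 500 kb among the most peak-rich domains.

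The strongest H3K27me3 peaks came largely from repeated genes. Of the 5 with the highest score, 4 lay in or next to the REXO1L1 array on chromosome 8 between 86571536 and 86805179 and were 413.2 to 587.0 kb from H3K27ac. Their scores were 3233.06, 3100, 3100 and 2978.39. The remaining one, chr18:44545970-44551871 (score 3070.95, width 5902 bp), lies at the ELOA3 gene array, 47.8 kb from an H3K27ac peak that scored 2284.65. Peaks in multicopy sequence depend on how reads of the copies were placed, which is not given in the sources used here. Of single-copy genes, 2 were chosen after their values were seen. At GATA6 the peak chr18:19750939-19752669 scored 1576.44 and lay 411.3 kb from H3K27ac. Near LHX4 the peak chr1:180203367-180204952 scored 1360.61 and lay 4.33 kb from an H3K27ac peak of score 55.34.

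An H3K27ac peak lay inside 12 of the 167 domains of 10 or more peaks (7.19%), and the H3K27ac peaks there scored from 51.08 to 783.05. These domains spanned a median of 20.4 kb, and 19.6% of all 25 kb bins held H3K27ac. Domains and bins are unlike units, and the difference was not tested. The 5S ribosomal RNA gene array, chr1:228744730-228781744, had 21 H3K27me3 peaks and 5 H3K27ac peaks, all touching H3K27me3, with H3K27ac scores of 58.68, 78.35, 52.51, 139.03 and 51.08. At LHX2 the domain chr9:126770110-126777583 had 10 H3K27me3 peaks with a best score of 774.66. Its 1 H3K27ac peak, chr9:126770637-126771460 with score 184.74, lay 0.145 kb from the nearest H3K27me3 peak without touching it. The highest H3K27ac scores inside such domains were 783.05 at the HOXB domain chr17:46704810-46726036, 650.49 in chr13:111745632-111770266 and 565.89 in chr19:10177108-10216028.

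The HOX clusters, ordered arrays of genes that pattern the body axis, showed the marks side by side. They were chosen after the ranks of their domains were seen, rank 10 for HOXC and rank 8 for HOXB. The HOXC domain, chr12:54321319-54377548, had 38 H3K27me3 peaks over the HOXC13 to HOXC11 end. Within 250 kb of its centre, H3K27ac had 0 peaks on the side of lower coordinates and 27 peaks (43.5 kb) on the other side. H3K27me3 had 44 and 15 peaks, the last ending 28.1 kb past the centre. HOXC10 to HOXC4 lie past the centre, but the 27 H3K27ac peaks ran from 18.8 to 233.5 kb past it. The window was not limited to the cluster, so this count is not limited to HOX genes. The first strong H3K27ac peak, score 2088.5, began at 29.3 kb. The 1 H3K27ac peak before it, chr12:54368246-54369087, scored 110.85 and lay 0.184 kb from H3K27me3.

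At HOXB the domain chr17:46794004-46832757, over the HOXB13 end, had 40 H3K27me3 peaks and lay 61.9 kb from H3K27ac. Within 250 kb, H3K27ac had 35 peaks (62.1 kb) on the side of lower coordinates and 5 peaks (6.78 kb) on the other side. H3K27me3 had 42 and 41 peaks. The 35 H3K27ac peaks ran from -243.7 to -88.2 kb relative to the centre. HOXB1 to HOXB9 lie on that side, but here too the count is not limited to HOX genes. In both clusters the H3K27me3 domain lay at the end with the highest-numbered genes and the H3K27ac block toward lower numbers.

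**Figure D3:**
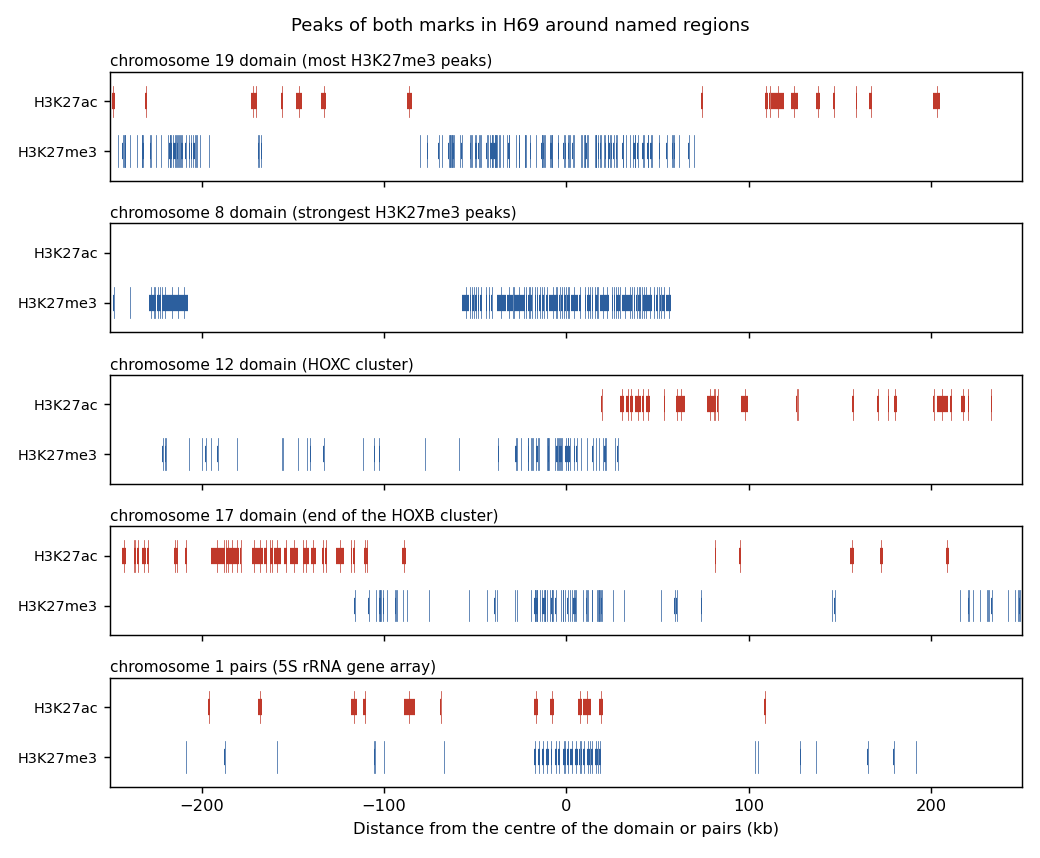
Peaks of H3K27ac (red, upper row) and H3K27me3 (blue, lower row) of H69 within 250 kb of the centre of named regions, drawn to scale, with distance from the centre in kb on the horizontal axis and a thin tick at the middle of each peak. The HOXC panel has 27 H3K27ac peaks on 1 side and 0 on the other, the chromosome 8 panel has 0 H3K27ac peaks, and the 5S rRNA panel has peaks of both marks on both sides of the centre.

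Chromosomes differed in how much of each mark they carried. H3K27ac covered 6.46 kb per Mb on chromosome 4, the lowest, and 49.3 kb per Mb on chromosome 22, the highest. H3K27me3 covered 0.129 kb per Mb on X and 14.4 kb per Mb on chromosome 19, which held 3509 H3K27me3 peaks or 16.2% of the list. H3K27me3 peaks outnumbered H3K27ac peaks only on chromosomes 18 and 19. The share of H3K27me3 peaks within 10 kb of H3K27ac was below that of grid points of the same chromosome on 20 of 23 chromosomes, the exceptions being 2, 13 and 21. The gap was wide on the chromosomes dense in H3K27ac, with 15.2% against 37.3% of grid points on chromosome 19, 16.2% against 32.9% on chromosome 17 and 19.7% against 35.2% on chromosome 22. Median distances from H3K27me3 to H3K27ac ran from 34.2 kb on chromosome 21 to 107.2 kb on chromosome 4, and were shorter than those of the grid on 10 of 23 chromosomes.

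**Figure D4:**
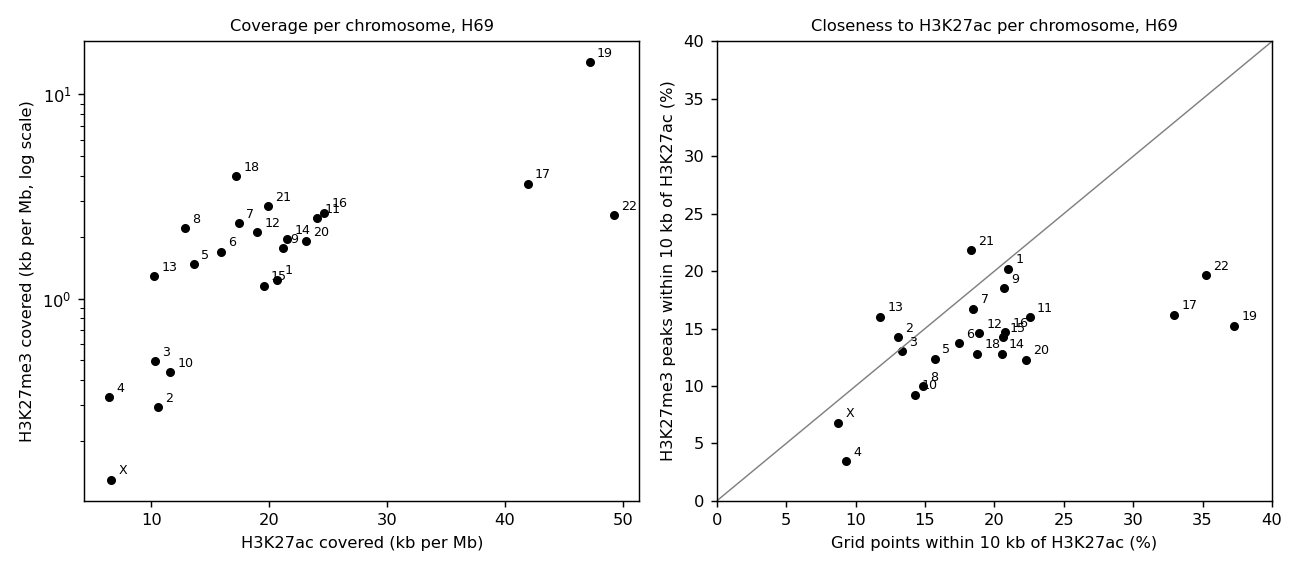
Left, covered length of H3K27me3 (kb per Mb, log scale) against H3K27ac (kb per Mb) for each chromosome of H69, labelled by name, with chromosome 19 highest at 14.4 kb per Mb of H3K27me3. Right, the percentage of H3K27me3 peaks within 10 kb of H3K27ac against that of grid points, with 20 of 23 chromosomes below the grey line of equal values.

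The last question concerned the sites with both marks. The 405 H3K27me3 peaks that overlapped H3K27ac by at least 1 bp were 1.87% of the list (1.70 to 2.06%), and they touched 308 H3K27ac peaks. The shared sequence came to 90.8 kb. In bases, 1.85% of H3K27me3 lay inside H3K27ac, where 1.7% of grid points did, and in the other direction 0.189% of H3K27ac lay inside H3K27me3 against 0.174% of grid points. By length the overlap was therefore close to the share of the usable genome that H3K27ac covers. By chromosome the share of H3K27me3 peaks that touched H3K27ac ran from 0 of 261 on chromosome 4 (upper 95% bound 1.40%) to 5.44% on chromosome 2 (2.93 to 9.12%). Chromosome 2 had 13 such peaks. Of these, 4 lay from 90 to 91 Mb and 4 from 91 to 92 Mb, near the centromere, so its interval is too narrow.

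In most pairs the H3K27me3 peak was contained in the H3K27ac peak. In 273 of the 405 (67.4%, 62.6 to 72.0%) the H3K27me3 peak lay wholly inside the H3K27ac peak. The centre of the H3K27me3 peak fell in the first, middle and last of 3 equal parts of the H3K27ac peak in 108, 132 and 108 pairs, and outside it in 57, so the first and last parts were hit equally often. Most of the 308 H3K27ac peaks, 241, touched 1 H3K27me3 peak and 67 touched 2 or more, up to 5. The H3K27ac peaks of the pairs had a median score of 168.84 against 213.34 for the rest of their list. The H3K27me3 peaks had 69.67 against 66.84, and median widths of 203 and 184 bp. Both scores reached 100 in 63 pairs, and over the pairs the 2 scores had a Spearman's rho of -0.030.

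**Figure D5:**
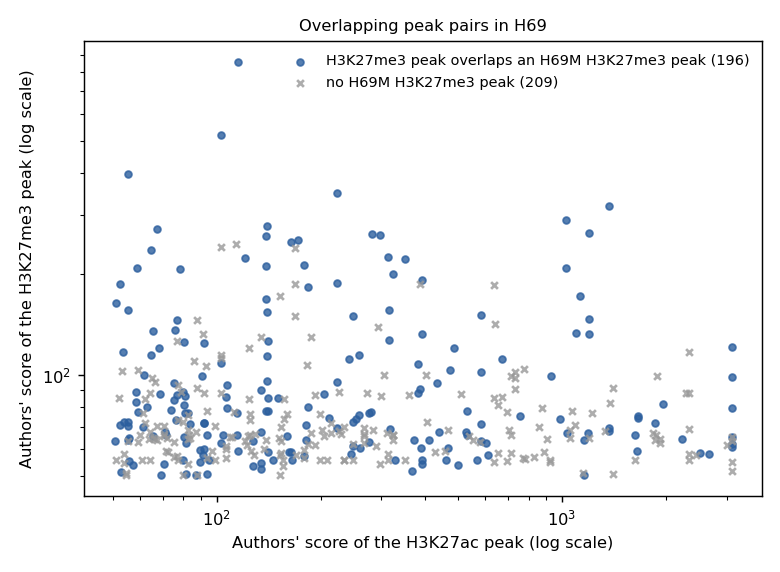
The authors' score of the H3K27me3 peak (vertical axis) against that of the H3K27ac peak (horizontal axis), both on log scales, for the 405 overlapping pairs of H69. Filled circles are pairs whose H3K27me3 peak also overlaps an H69M H3K27me3 peak (196) and crosses are the others; the points show no common slope (Spearman's rho -0.030).

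By H3K27me3 score the first pair was chr1:148853403-148855429, score 856.84, which overlapped an H3K27ac peak of score 115.59 over 1457 bp and was also the longest overlap. The second was chr13:110437215-110438331 at IRS2, score 519.58. It overlapped the H3K27ac peak chr13:110438209-110439022 (score 103.15) at its edge, over 123 bp. Wholly inside that H3K27ac peak lay chr13:110438349-110438569 (score 88.28) and chr13:110438600-110438912 (score 114.99), neither of which overlapped an H69M H3K27me3 peak. At PTPRM, a receptor tyrosine phosphatase, the peak chr18:7568423-7569086 (score 289.62) lay almost wholly in an H3K27ac peak of score 1025.78. At ASCL2, an imprinted transcription factor gene of the 11p15 region, 4 H3K27me3 peaks touched the H3K27ac peak chr11:2290588-2291922 (score 139.64), the best of them scoring 278.09. Pericentromeric chromosome 2 gave chr2:91670007-91670581 (score 319.36) and chr2:90449598-90449942 (score 265.37), in H3K27ac peaks of scores 1367.51 and 1199.63. The other 4 of the first 10 were chr12:132973816-132974620, chr9:139084980-139085440, chr21:46352437-46353109 and chr21:47061967-47062545, with scores from 262.53 to 397.37. All 10 H3K27me3 peaks overlapped an H3K27me3 peak in H69M as well. They were picked by score, and the 20 highest-scoring H3K27me3 peaks of the whole list all did so too. This overlap is therefore not particular to sites with both marks. The 10 longest overlaps ran from 777 to 1457 bp, and 7 of them lay in the 5S ribosomal RNA array.

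In 59 of the 405 pairs (14.6%, 11.3 to 18.4%) the H3K27ac score was 1000 or more. Of all 38255 H3K27ac peaks, 6034 scored 1000 to 3100 and 3417 scored 3100 or more. The following 3 sites were chosen after their values were seen. The H3K27ac peak with the most H3K27me3 peaks was chr18:25755169-25758580 at CDH2, which encodes N-cadherin. It scored 2334.09 and touched 5 H3K27me3 peaks with scores of 116.88, 55.77, 58.24, 88.28 and 68.89, none of which overlapped an H69M H3K27me3 peak. At NPTX2 the H3K27ac peak chr7:98245863-98247881 (score 582.83) touched 4, with scores of 71.19, 102.31, 151.06 and 63.42, all of which overlapped one in H69M. At GDNF, a neurotrophic factor, the peak chr5:37837431-37837713 (score 121.54) overlapped the first 96 bp of an H3K27ac peak of score 3100.

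The pairs were spread over 247 bins of 1 Mb. The 10 bins with the most pairs held 61 of them (15.1%). Chromosome 1 from 148 to 149 Mb, in a part of 1q21 known for large duplicated segments, held 12. Chromosome 1 from 228 to 229 Mb, with the 5S array, held 9, and so did chromosome 11 from 2 to 3 Mb, the imprinted region of IGF2, TH and ASCL2. Of all pairs, 23 lay no more than 2 Mb from the longest stretch without peaks on their chromosome. Without the 10 bins, the share of H3K27me3 peaks touching H3K27ac was 1.61%. The part of duplicated sequence in these counts was not tested.

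The same sites were looked up in H69M. Of the H3K27me3 peaks with H3K27ac, 48.4% (43.4 to 53.4%) overlapped H69M H3K27me3, against 32.3% (31.7 to 32.9%) of those without. An H69M H3K27ac peak lay over 67.7% (62.9 to 72.2%) of the former and 3.43% of the latter. Of the 308 H3K27ac peaks with H3K27me3, 71.4% (66.0 to 76.4%) were acetylated in H69M too, against 77.5% of the others, and 52.9% (47.2 to 58.6%) overlapped H69M H3K27me3 against 1.24%. Both marks of H69M lay over 107 of the 405 H3K27me3 peaks (26.4%, 22.2 to 31.0%) and over 1.52% of the H3K27me3 peaks without H3K27ac. The groups were formed by the H69 marks at the same sites, and many H69 peaks recur in H69M. The contrasts of 67.7% with 3.43%, 52.9% with 1.24% and 26.4% with 1.52% therefore follow largely from that choice. They do not show a property of sites with both marks.

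H69M, with longer lists, shared with H69 the dip just outside the peaks, and differed from it inside the peaks and at longer range. Its H3K27me3 peaks lay a median of 54.0 kb from H3K27ac, against 40.2 kb for the grid. Pooled over chromosomes they were thus farther than the grid, where those of H69 were nearer. Chromosome by chromosome, those of H69 were nearer on 10 of 23. Of its H3K27me3 peaks 16.3% were within 10 kb of H3K27ac, against 22.8% of grid points, and 68.95% were within 100 kb against 70% of grid points. In the other direction 6.22% of its H3K27ac peaks were within 10 kb of H3K27me3 against 9.04%, and 29.0% were within 100 kb against 31.7%. H3K27me3 around H3K27ac had a ratio of 1.46 inside, where H69 had 1.09. The ratio was 0.521 at 2 to 5 kb and 1.41 at 50 to 100 kb, but beyond 1 Mb it was 1.58 where H69 had 0.0439. Of 37853 H3K27me3 peaks, 1325 touched H3K27ac (3.50%, 3.32 to 3.69%). By length this was 3.94% of H3K27me3 against 2.7% of grid points, while the values in H69 were 1.85% and 1.7%. In the other direction 0.408% of its H3K27ac length lay inside H3K27me3, against 0.28% of grid points. Of its 51091 H3K27ac peaks 1.56% touched H3K27me3, a share that rises with peak width and cannot be set against points. The lists of H69M are longer for both marks and depth is unknown, so a difference between the lines cannot be told apart from a difference between libraries and was not tested.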

How the data were processed

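Peak lists of 4 antibody libraries were used, 1 library per mark and line; each deposited list gives position, name and a score per peak that the authors' caller made. The names carry the word MACS, per the file contents; its version and settings, and any use of the input, were not given in the sources used here. Bowtie2, SAMtools 0.1.19 and hg19 are named per the submitters' processing notes. No listed H69 peak scores under 50.01, and narrow H3K27me3 peaks may leave out wide weak domains. The score was used within a list to rank and filter. Coordinates are 1-based on hg19.

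Peaks on chromosomes 1 to 22 and X were compared by overlap (1 bp), edge distance, bins of 10 kb to 1 Mb and neighbour order, in Python 3.11.15 with NumPy 2.4.6 and SciPy 1.17.1 (figures: matplotlib 3.10.9). The overlap, distance and bin counts were tested on simulated data with planted overlaps. Shares carry exact (Clopper-Pearson) 95% intervals. Intervals of bin ratios use the share of all compared bins that held both marks, with the product of shares held fixed. Medians have order-statistic intervals. Background points lie every 1 kb on the usable genome. With 1 library per group no p-value was computed.

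Named regions are the 10 pairs with the highest H3K27me3 score, the 10 longest overlaps, the 5 strongest H3K27me3 peaks, the 5 longest runs of each mark, 5 bins of each class and the 5 domains with the most peaks; others are said to be chosen after their values were seen. Members, lists and rules were chosen with earlier results of these data known. Alternatives were score 100 or more, equal numbers of peaks, other overlaps, bins and joins. No gene table on hg19 was used, so marks at gene starts and the gene and marker lists were not analysed here.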

Additional observations from a re-analysis of the deposited data

Results flagged for a closer look

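Over all bins, H69 and H69M fell on opposite sides of 1 in the number of bins with both marks divided by the product of the shares. At 50 kb the ratio was 1.11 in H69 and 0.887 in H69M. At 100 kb it was 1.17 in H69 and 0.959 in H69M. Each line had 1 library per mark, and the difference between the lines was not tested.

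Outside chromosomes 1 to 22, X and Y, which the comparisons leave out, the H69 lists held 26 H3K27ac peaks and 65 H3K27me3 peaks on other sequences of the build. They made up 0.068% of the listed H3K27ac peaks and 0.299% of the listed H3K27me3 peaks. They are printed because each count exceeds a fixed limit of 3, which is not a test.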

How the results depend on the processing

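The share of H3K27me3 peaks touching H3K27ac (1.87%) was 2.88% among H3K27me3 peaks scoring 100 or more, 1.30% against H3K27ac peaks scoring 100 or more and 0.984% with equal numbers of peaks (21638 of each mark, by score). It was 1.61% with an overlap of 50% or with the centre inside, and 1.61% without the 10 bins richest in pairs, an alternative chosen after seeing the data. The median distance (50.9 kb) was 55.7 kb, 59.8 kb and 66.3 kb under the first 3 of these settings. The 10 kb ratio (0.191) was 0.179 with equal numbers, 0.870 over all bins and 0.538 with the product inside each 1 Mb (chosen after seeing the data). The 100 kb ratio (0.790) was 0.822 against H3K27ac peaks scoring 100 or more, 0.839 with equal numbers, 0.921 with the product inside each 1 Mb and 1.17 over all bins, the 1 setting that changed a side. Counting empty bins lowers the product by construction. The 1 Mb ratio (1.03) was 1.08 with equal numbers and 1.08 over all bins. The share of equal neighbours (87.7%) was 94.8% with H3K27me3 at 100 or more and 86.2% with H3K27ac at 100 or more. It was 85.4% with equal numbers, 79.9% with joining under 5 kb and 71.6% with joining under 20 kb (chosen after seeing the data). The any-order value, 53.8% for the full lists, shifts with the number of peaks of each mark and was not recomputed. These shares therefore do not show stronger or weaker separation. Except where a construction is named, the cause was not tested. In the other 22 settings values moved by less than their 95% counting interval. Without replicates no leave-one-out value exists, and depth is unknown. No paired analysis was possible because each group has 1 library. Marks at gene starts were planned and not run.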
